A study of Schizosaccharomyces pombe with 70 samples.

Results

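Ribosome assembly and rRNA processing genes of fission yeast (Schizosaccharomyces pombe) were followed through 2 h of treatment with hydroxyurea (HU), a drug that blocks ribonucleotide reductase and so starves DNA replication of nucleotides. The genes were listed by name, but the list was drawn up with earlier results of these data known. It took every symbol of the array annotation that starts with rrp, utp, nop, noc, nog, rpf, mak or dbp followed by a digit. It also took ebp2, spb4, acl4, rlp7, bfr2, brx1, gar2, ppp1, cgr1 and mpp6, each named singly. The rule found 86 genes among the 4929 features of the array, and all 86 could be tested. A name is not a function: 6 of the 86 are known for other roles, namely the histidine kinases mak1, mak2 and mak3, the mRNA export helicase dbp5, and the Rad16-like DNA translocases rrp1 and rrp2.

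Ribosomes are built in the nucleolus from a long rRNA precursor made by RNA polymerase I. Small nucleolar RNPs and a large early complex, the small subunit processome, cut and fold the part that becomes the 40S subunit, separate sets of factors and RNA helicases mature the 60S subunit, and the exosome trims and degrades RNA ends and by-products. In yeasts the genes for these factors are known as a group whose transcripts fall together under many stresses. The roles given below for single genes are those known for the budding yeast proteins unless another source is named.

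Cultures of 5 strains were sampled: wild type (WT), mutants of rad3 (the ATR-like checkpoint kinase), of cds1 and of chk1 (the kinases that act below it), and a rad3sep1 double mutant, in which the forkhead transcription factor gene sep1 is affected too; the labels give no allele, mating type or other marker. All were asynchronous cells in mid-log growth at 30 degrees, collected at 0, 10, 30, 60 or 120 min of exposure to HU at 8 mM. Each array gave the ratio of that culture's RNA (Cy5) to RNA of untreated wild type (Cy3), so every strain at every time was set against the same kind of reference, and no dyes were swapped. The 70 arrays came to 61 samples after 9 pairs of near-identical arrays, which differed by less than other repeats did, were each counted as 1 sample: wild type has 13, rad3 14, cds1 15, chk1 14 and rad3sep1 5. Groups therefore hold 3 or 2 samples, and those of rad3sep1 hold 1, which was taken to vary like the other strains. The transcript named for each mutation was low where the labels say so: rad3 averaged -2.20 in rad3 mutants against -0.18 in wild type, cds1 -2.45 against 0.29, chk1 -1.37 against -0.53, and sep1 -3.54 against -0.09. Whole-culture RNA was measured, so fewer cells with a transcript and less of it per cell cannot be told apart, and the precision is limited by the number of arrays.

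Late in HU, taken as the mean of 60 and 120 min against 0 min of the same strain, between 43 and 57 of the 86 ribosome assembly genes were lower, depending on the strain. In wild type 56 of the 86 genes were lower and 0 higher at an adjusted p of 0.05 (limma, Benjamini-Hochberg over 4921 features), where 12.1% of all features were lower and 12.3% higher. In rad3 mutants 50 genes were lower and 1 higher, against 8.94% and 10.4% of all features. In cds1 mutants 43 were lower and 1 higher, against 12.6% and 12.4%. In chk1 mutants 57 were lower and 1 higher, against 14.9% and 12.6%. In rad3sep1 43 were lower and 1 higher, against 5.14% and 11%. The gene that was higher was noc4 each time, and its rise came from 1 of its 2 probes (below).

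The decreases were moderate in size. The median log2 change of the 86 genes was -0.39 in wild type, -0.40 in rad3, -0.33 in cds1, -0.41 in chk1 and -0.67 in rad3sep1, beside medians of 0.00, -0.01, -0.02, 0.00 and 0.02 over all features tested. The shift took in nearly the whole list: 79 of 86 changes were below 0 in wild type, 81 in rad3, 81 in cds1, 77 in chk1 and 80 in rad3sep1. Without untreated sample 2 the wild type count was 34, and without untreated sample 3 the cds1 count was 28. With the second probe of each gene alone the counts were 34 in wild type, 33 in rad3 and 26 in cds1, and in rad3sep1 either probe alone gave 26 or 25 and quantile normalization between arrays left 5.

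**Figure D1:**
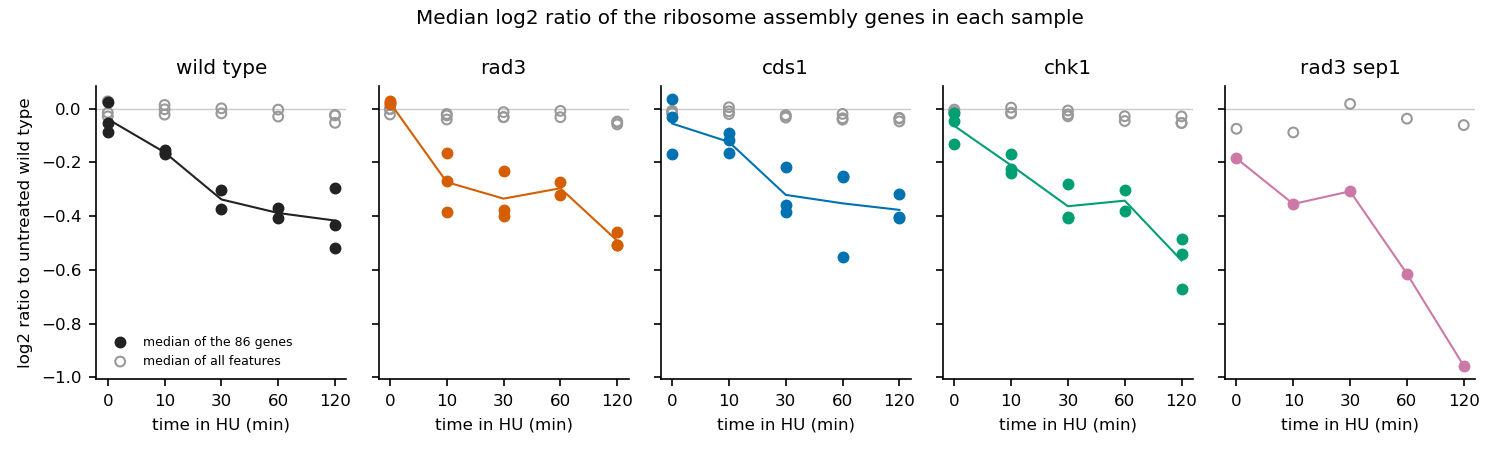
Median log2 ratio to untreated wild type (vertical axis) of the 86 ribosome assembly genes (filled points) and of all 4921 tested features (open points) in each sample, by time in HU in min (horizontal axis, unevenly spaced times) and strain; lines join the means of the samples. The all-feature medians lie near 0, while the gene medians lie below them from 10 min on and reach -0.96 in rad3sep1 at 120 min.

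The median over the 86 genes was also taken in each sample. In wild type the median log2 ratio of the 86 genes lay between -0.09 and 0.03 in the 3 untreated samples, and at 10 min between -0.17 and -0.15. It then read -0.37 and -0.30 in the 30 min samples, -0.41 and -0.37 in the 60 min samples, and from -0.52 to -0.30 in those of 120 min. In rad3 mutants it lay between 0.02 and 0.03 untreated and between -0.51 and -0.46 at 120 min. The samples from 10 min on lay below every untreated sample of their strain in wild type, rad3 and chk1. In cds1 the untreated samples ranged from -0.17 to 0.03 and those at 10 min from -0.16 to -0.09, so these groups overlapped, and the samples from 30 min on lay below both. Counted by gene, every sample of 60 and 120 min lay below every untreated sample of its strain for 51 genes in wild type, 61 in rad3, 25 in cds1 and 49 in chk1, where 12.6%, 13%, 8.11% and 12.7% of all features did so.

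**Figure D2:**
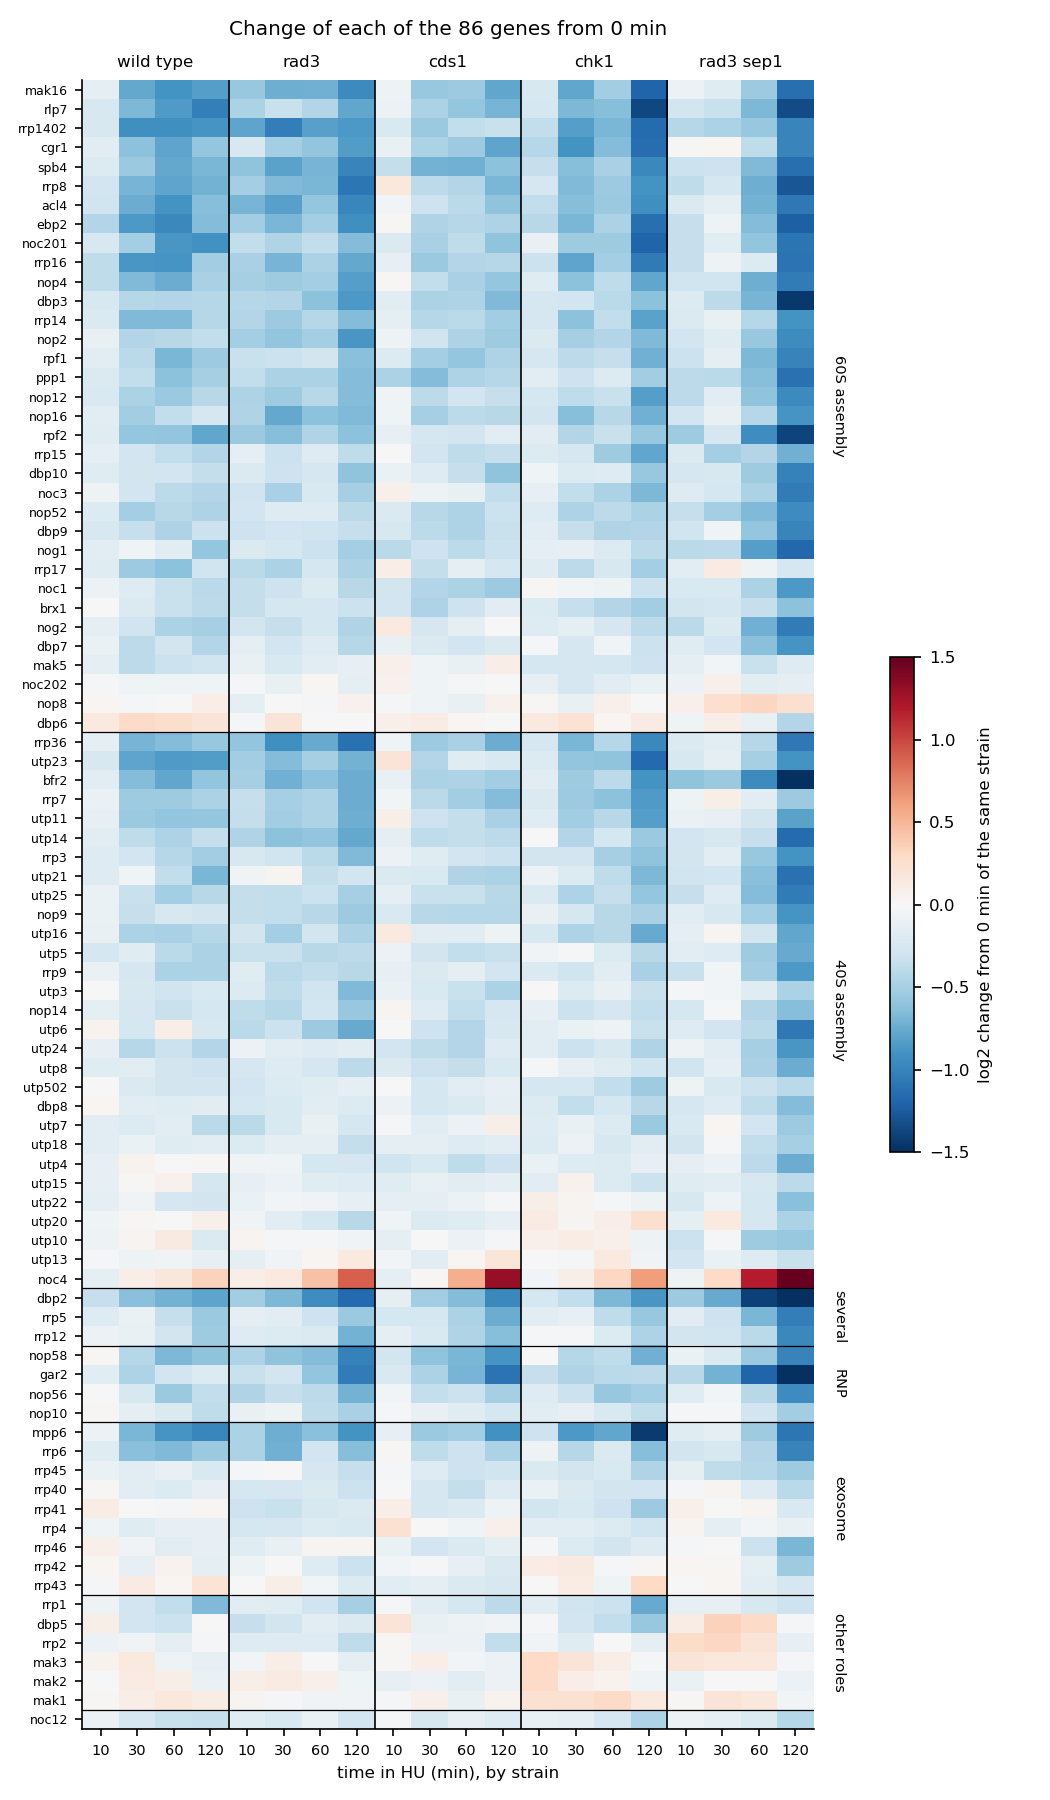
Log2 change from 0 min of the same strain for each of the 86 genes (rows, grouped by role and ordered within a role by their mean late change) at 10, 30, 60 and 120 min in HU (columns) in the 5 strains; blue is lower, red is higher, and colours saturate at 1.5. Blue prevails from the top of the large and small subunit blocks, pale rows gather at their lower ends and among the exosome and the genes of other roles, and noc4 stands out in red.

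Factors of the 60S subunit, the role with the most genes, held the most decreases by number. Of 34 such genes, 30 were lower late in wild type, 26 in rad3, 22 in cds1, 28 in chk1 and 23 in rad3sep1, with median changes of -0.47, -0.52, -0.42, -0.54 and -0.78. For rlp7, which resembles a ribosomal protein and acts in processing the precursor of the large rRNAs, the log2 ratio in wild type was 0.41, 0.33 and 0.47 untreated, -0.34 and -0.54 at 60 min, and -0.72, -0.87 and -0.27 at 120 min. Its 3 chk1 samples at 120 min were lower still, at -1.08, -0.88 and -0.88, after 0.52, 0.32 and 0.41 untreated. Late and untreated samples of rlp7 did not overlap in either strain. The change was -0.93 ± 0.13 (SE, n = 3 and 5) in wild type, 1.91-fold lower (limma, adjusted p = 5.38e-07), and -1.0 ± 0.13 in chk1, with -0.61 in rad3 and -0.64 in cds1.

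The assembly factor ebp2 fell in the same way but with wider spread. Its wild type samples read 0.30, 0.27 and 0.12 untreated, -0.72 and -0.75 at 60 min and -0.40, -0.73 and -0.13 at 120 min, a change of -0.81 ± 0.16 (limma, adjusted p = 0.000155). In cds1 mutants they read -0.27, 0.44 and 0.27 untreated and 0.10, -0.49 and -0.57 at 120 min, so the groups overlapped there, and the change was -0.45 ± 0.15 (limma, adjusted p = 0.0258). The helicase spb4 was among the steadiest: wild type read -0.48, -0.08 and -0.37 untreated and -0.87, -1.25 and -0.86 at 120 min, and its late change lay between -0.84 and -0.67 in wild type and the 3 single mutants. Nothing overlapped for spb4 between untreated samples and those of 60 and 120 min in any of these 4 strains.

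Other 60S genes with changes of similar size were mak16, noc201, rrp1402, acl4, rrp8, rrp16, rpf2 and cgr1. In wild type mak16 changed by -0.86 ± 0.17, noc201 by -0.89 ± 0.12, rrp1402 by -0.90 ± 0.20 and acl4, a chaperone of ribosomal protein L4, by -0.77 ± 0.13. The rRNA methyltransferase gene rrp8 changed by -0.75 ± 0.16, rrp16 by -0.71 ± 0.15, rpf2 by -0.69 ± 0.19 and cgr1 by -0.69 ± 0.17, while brx1 moved less, by -0.36 ± 0.08. All of these passed the test in wild type, rad3, cds1 and chk1 except rrp1402, whose change in cds1 was -0.35 ± 0.20 (limma, adjusted p = 0.187), and rpf2, whose change was -0.22 ± 0.18 in cds1 and -0.45 ± 0.19 in chk1. The 60S genes that were lower in none of these 4 strains were dbp6, noc202 and nop8, the last with probes that disagreed (below).

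Factors of the 40S subunit split between genes that fell and genes that did not pass the test. Of 29, 17 were lower late in wild type, 14 in rad3, 13 in cds1, 17 in chk1 and 14 in rad3sep1, with median changes of -0.29, -0.38, -0.30, -0.34 and -0.55. For the processome component bfr2 wild type read 0.01, 0.15 and -0.19 untreated, -0.76 and -0.82 at 60 min, and -0.79, -0.86 and -0.14 at 120 min. The third sample at 120 min thus lay within the untreated range while the other late samples lay well below it, and the change was -0.69 ± 0.15 (limma, adjusted p = 0.000553). For rrp36, needed for early cuts of the precursor, rad3 mutants read 0.43, 0.24 and 0.45 untreated, -0.25 and -0.52 at 60 min, and -0.73, -0.80 and -0.70 at 120 min. These groups did not overlap, and rrp36 changed by -0.94 ± 0.15 in rad3 (limma, adjusted p = 6.51e-06) and by -0.61 ± 0.15 in wild type.

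Among the utp genes, whose products are mostly processome subunits, some passed the test with large changes and others did not pass in wild type or a single mutant. utp23 fell to a change of -0.85 ± 0.18 in wild type and -0.88 ± 0.18 in chk1, but in cds1 its change was -0.20 ± 0.17 and did not pass, and 1 sample of 120 min read 0.39 and the other two -0.51 and -0.54. utp6 changed by -0.65 ± 0.12 in rad3 (limma, adjusted p = 9.36e-05), and its change in wild type was -0.07 ± 0.12. The difference for utp6 between rad3 and wild type, -0.57 ± 0.17, did not pass the test (limma, adjusted p = 0.0964). At the other end, the change of utp10 was -0.04 ± 0.11 in wild type and 0.00 ± 0.11 in chk1, although it was lower in rad3sep1, at -0.55 ± 0.18, and utp4, utp10, utp13, utp15 and utp18 were lower in none of wild type and the single mutants.

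The 3 genes that serve both subunits or have several roles, dbp2, rrp5 and rrp12, were lower in all 5 strains. The helicase gene dbp2 read -0.31, -0.31 and -0.38 untreated in wild type, -0.96 and -0.97 at 30 min, -1.0 and -1.09 at 60 min and -1.12, -1.31 and -0.94 at 120 min. Its levels descended with time in every strain, and the late change was -0.75 ± 0.11 in wild type, -1.05 ± 0.11 in rad3, 2.07-fold lower, -0.81 ± 0.11 in cds1 and -0.77 ± 0.11 in chk1 (limma, adjusted p between 6.49e-10 and 1.33e-06). In rad3sep1 dbp2 went from 0.50 untreated to -0.90 and -1.17, a change of -1.54 ± 0.18. rrp5, a scaffold for both subunits, changed by -0.45 ± 0.15 in wild type, and rrp12, which acts in subunit export, by -0.40 ± 0.09.

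Of the 4 nucleolar RNP and nucleolin-like genes, the core proteins of the methylation guide RNPs, nop56 and nop58, were lower in all 5 strains. nop58 read 0.46, 0.26 and 0.37 untreated in wild type and -0.31, -0.43 and 0.02 at 120 min, and changed by -0.64 ± 0.15. nop10, of the pseudouridine guide RNPs, passed the test in rad3 alone, at -0.43 ± 0.15, and its change in wild type was -0.30 ± 0.15 (limma, adjusted p = 0.157). gar2, the fission yeast nucleolin homolog, is described with the strain differences.

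The exosome itself was mostly not among the genes that passed. Of 9 genes, 2 were lower in wild type, 2 in rad3, 1 in cds1, 3 in chk1 and 0 in rad3sep1. The one with the large response was mpp6, an RNA-binding cofactor of the nuclear exosome: in wild type it read 0.23, 0.31 and 0.33 untreated, -0.53 and -0.67 at 60 min and -0.76, -0.88 and -0.43 at 120 min. Late and untreated samples of mpp6 were far apart, and it changed by -0.93 ± 0.19 in wild type, -0.76 in rad3, -0.72 in cds1 and -1.11 in chk1, passing in each. rrp6, the nuclear exosome's own nuclease, changed by -0.61 ± 0.19 in wild type (limma, adjusted p = 0.0158). Of the core ring subunits, rrp41 and rrp45 were lower in chk1, rrp41 at -0.42 ± 0.16 (limma, adjusted p = 0.0426) and rrp45 at -0.34 ± 0.12 (limma, adjusted p = 0.0344). Their changes in wild type were 0.00 ± 0.16 and -0.17 ± 0.12 and did not pass. That of rrp42 in wild type was -0.05 ± 0.09, and it passed in rad3, at -0.26 ± 0.09. In the mean of 60 and 120 min rrp4, rrp40, rrp43 and rrp46 were lower in none of wild type and the single mutants. At 120 min alone rrp40 was lower in rad3 and rrp4 in chk1.

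Of the 6 genes of other roles that share the names, rrp1 and dbp5 passed the test late in HU. In wild type and the single mutants the changes of the kinase genes mak1, mak2 and mak3 lay between -0.12 and 0.22 and passed in none. In the mean of 60 and 120 min rrp2 did not pass either, though at 120 min alone it was lower in rad3 and cds1. The translocase gene rrp1 was lower in wild type and all single mutants, by -0.51 ± 0.09 in wild type and -0.54 ± 0.09 in chk1. The export helicase dbp5 was lower in chk1, at -0.47 ± 0.13, and its change in wild type was -0.16 ± 0.13. noc12, which was given no role here, was lower in wild type, at -0.34 ± 0.11, and in chk1.

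**Figure D3:**
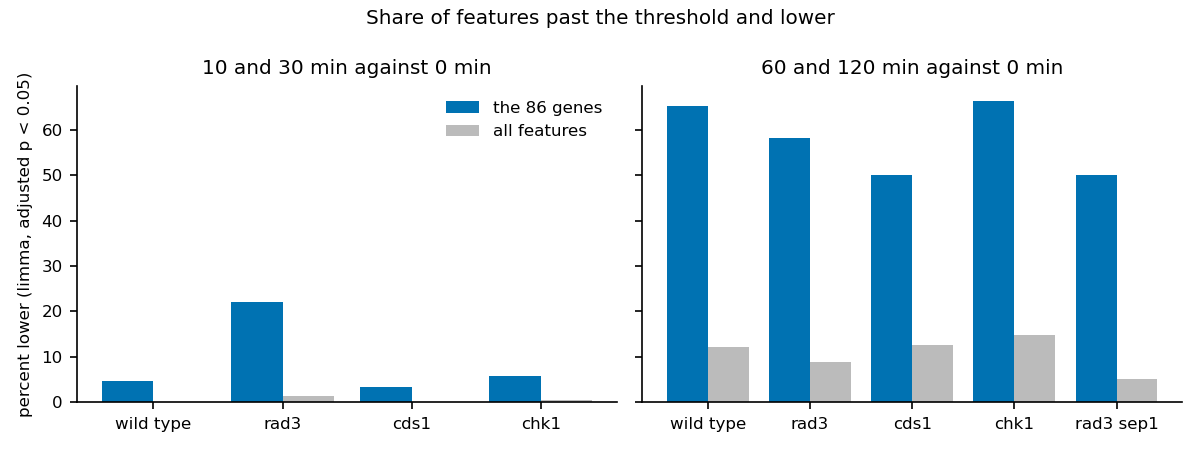
Percent of the 86 ribosome assembly genes (blue) and of all 4921 tested features (grey) that were lower at an adjusted p under 0.05 (limma), for 10 and 30 min (left) and for 60 and 120 min (right) against 0 min, by strain. Late bars of the 86 genes lie between 50 and 66.3% and those of all features between 5.14 and 14.9%.

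Across wild type, rad3, cds1 and chk1, 34 of the 86 genes were lower in all 4, where 3.33% of all features were. Of the genes that the rule names singly, all but gar2 were among these 34. The list was drawn up with earlier results of these data known, so this is no independent result. The singly named genes also raise the count of 34. A further 13 genes were lower in 3 strains, 9 in 2 strains, 13 in 1 strain and 17 in none. Of the 4921 features tested, 201 were lower in 3 strains, 299 in 2, 529 in 1 and 3728 in none. No 2 of the 86 genes lie next to each other on a chromosome.

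Early in HU the medians of the genes were below 0 already, although few single genes passed the test. For the mean of 10 and 30 min against 0 min, 4 genes were lower in wild type, where 0.102% of all features were, 19 in rad3 against 1.4%, 3 in cds1 against 0.122% and 5 in chk1 against 0.488%. The genes in wild type were ebp2, rrp16, acl4 and dbp2, with ebp2 at -0.65 ± 0.16. Those in cds1 were ppp1, spb4 and brx1, with ppp1, of the pescadillo family, at -0.56 ± 0.10, and those in chk1 were cgr1, rrp16, acl4, spb4 and rlp7. In rad3 rrp1402 changed most, by -0.91 ± 0.20, and rrp36 by -0.76 ± 0.14. Median changes of the 86 genes were -0.21, -0.31, -0.17 and -0.24 in wild type, rad3, cds1 and chk1, and at an unadjusted p under 0.05 there were 37, 58, 24 and 45 genes. The share of all features at an unadjusted p was not counted, here or below, so such counts are not set against the array.

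These early counts moved with single samples. Since same-numbered samples deviated together in wild type, cds1 and chk1, the fit with the replicate number as a block is given too, and it called 8, 11 and 28 genes in these strains, all lower but 1 in chk1. In rad3, where 5 of 6 pairs of same-numbered samples correlated over 0.1, the block called 53 genes. The shares of all features past the test under the block or without a sample are not given, here or below. Such counts are therefore not set against the array. Without 1 sample at a time the count went from 4 to between 0 and 3 in wild type (0 without untreated sample 2 or 3 or the averaged 30 min sample, 1 without untreated sample 1 or 30 min sample 2, 2 without 10 min sample 1). In rad3 leaving out any 1 of the 9 samples moved it by over 1.5 times, to between 3 (without untreated sample 3) and 34 (without 10 min sample 3). In cds1 it was 1 without untreated sample 2 and 5 without 30 min sample 1, and in chk1 it was 0 or 1 without any untreated sample, without 10 min sample 1 or 2, or without 30 min sample 2.

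Single times, chosen as a comparison after the data were seen, gave a count for each time. The 60 min groups of wild type, rad3 and chk1 and the 30 min group of wild type hold 2 samples, the others 3. Counts at different times are thus not directly comparable. In wild type 0, 6, 31 and 48 genes were lower at 10, 30, 60 and 120 min, against 0%, 0.345%, 4.84% and 12.1% of all features. In rad3 the counts were 2, 15, 11 and 58, against 0.0813%, 0.914%, 0.772% and 14.9%. In cds1 they were 0, 8, 23 and 37, against 0%, 0.447%, 3.25% and 14.1%. In chk1 they were 0, 22, 9 and 64, against 0%, 3.03%, 1.38% and 19.5%. At 10 min, where limma called 0 genes in wild type, cds1 and chk1, 6, 8 and 14 genes had an unadjusted p under 0.05.

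**Figure D4:**
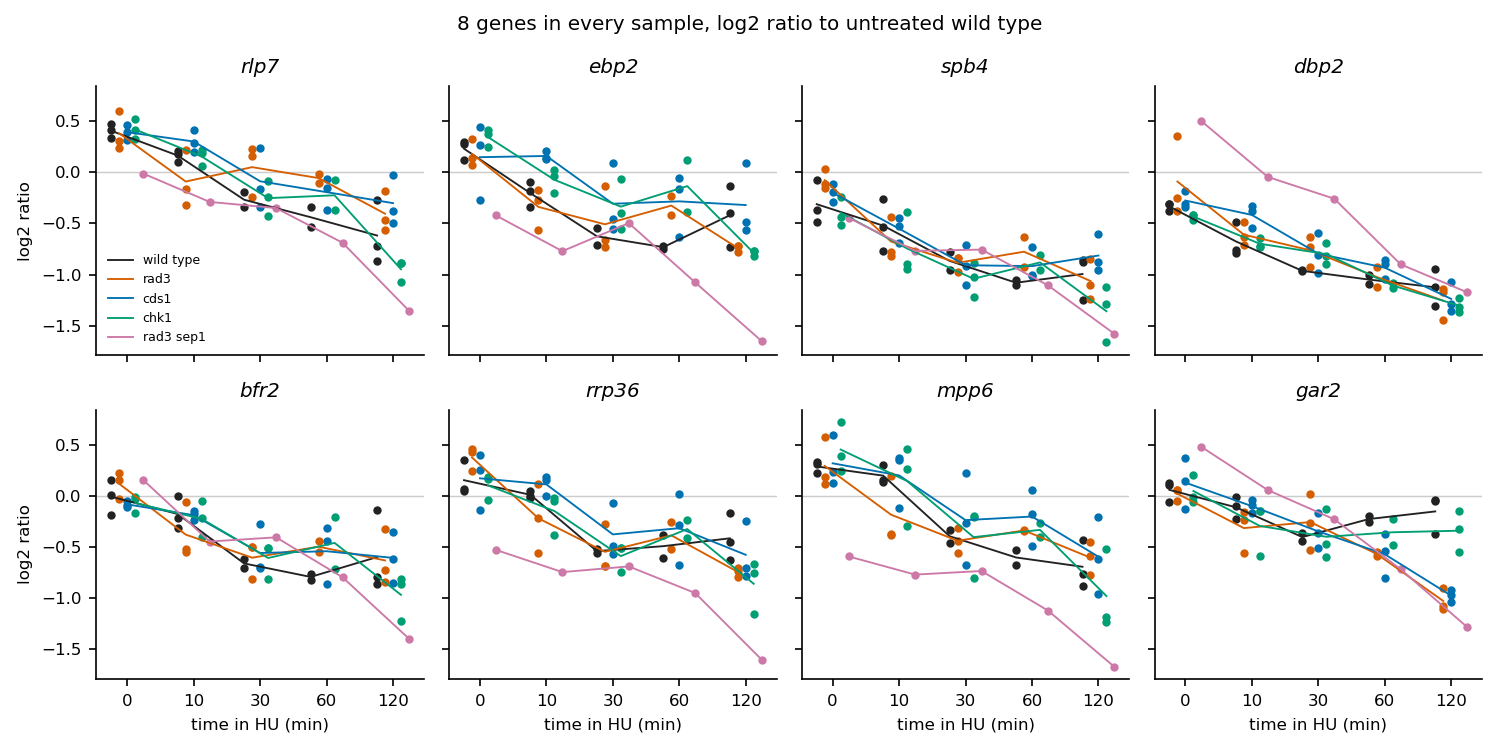
Log2 ratio to untreated wild type (vertical axis) in every sample for rlp7, ebp2, spb4, dbp2, bfr2, rrp36, mpp6 and gar2 by time in HU in min (horizontal axis, unevenly spaced times); points are samples, colours are strains and lines join group means. Group means of all 8 genes are lower at 120 than at 0 min in every strain, and gar2 reaches between -1.10 and -0.90 in rad3 and between -1.04 and -0.92 in cds1 at 120 min and lies between -0.37 and -0.04 in wild type.

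The time courses are given as a description, with no test of their shape. In wild type the median change of the 86 genes at the 4 times was -0.13, -0.28, -0.35 and -0.40. In rad3 it was -0.29, -0.31, -0.28 and -0.49, and in chk1 -0.17, -0.29, -0.29 and -0.51. In cds1 it was -0.09, -0.28, -0.34 and -0.33, and in rad3sep1 -0.22, -0.15, -0.43 and -0.88. The lowest mean level came at 120 min for 35 genes in wild type, 39 in cds1, 63 in rad3, 72 in chk1 and 80 in rad3sep1. The same count was not made over all features. Their spread widened with time, from a median SD per sample of 0.31 at 0 min to 0.49 at 120 min. It was widest, at 0.73, in the single rad3sep1 sample of 120 min.

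The second hour itself, 120 against 60 min, moved few single genes past the test. In wild type 0 genes passed in limma, where 2.74% of all features did, and 5 had an unadjusted p under 0.05 (1 gene passed without 120 min sample 1). In rad3 1 gene passed against 2.32%, rrp12 at -0.49 ± 0.12. In cds1 1 passed against 3.64%, noc4 at 0.77 ± 0.18, and 2 without 60 min sample 1. In chk1 6 passed against 4.92%, all of them lower, where 2.21% of all features were lower: rlp7 at -0.72 ± 0.16, mak16 at -0.67 ± 0.21, noc201 at -0.67 ± 0.15, ebp2 at -0.65 ± 0.20, rrp1 at -0.44 ± 0.11 and dbp10 at -0.38 ± 0.12. With the replicate number as a block 2 genes passed in wild type, 4 in rad3, 2 in cds1 and 15 in chk1. The chk1 count was 0 without 60 min sample 1, 11 without the averaged 60 min sample, 2 without 120 min sample 1 and 0 after quantile normalization. The rad3 count was 0 without either 60 min sample, 2 without 120 min sample 1 and 0 after quantile normalization, which also left 0 in cds1.

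The question of whether the checkpoint mutants respond differently was put to the difference between the late changes of each mutant and wild type. All strains but rad3sep1 are set against the same wild type samples in it. For rad3 0 genes passed in limma, where 1.3% of all features did, and 5 had an unadjusted p under 0.05. For chk1 0 passed, where 0% of all features did, and 0 had an unadjusted p under 0.05. For cds1 1 gene passed, where 2.15% of all features did, and this was gar2. For rad3sep1 against rad3 0 passed, where 0.813% of all features did, and 12 had an unadjusted p under 0.05. Without untreated rad3 sample 2, 1 gene passed for rad3 against wild type, and without cds1 60 min sample 1, 2 genes passed for cds1. With the replicate number as a block 3 genes passed for rad3, 4 for cds1 and 1 for rad3sep1 against rad3. In the early comparison 0 genes passed for rad3, cds1 or chk1 against wild type, where 0.0406%, 0.061% and 0% of all features did, and 0, 2 and 0 had an unadjusted p under 0.05. The median standard error of these late differences was 0.18 in each of the 3 mutants, beside late changes with medians near -0.40. Differences well above that error did not pass either, such as -0.57 for both utp6 and gar2 between rad3 and wild type. Counts of 0 here thus do not show that the strains respond alike.

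gar2 read 0.13, 0.11 and -0.06 untreated in wild type, -0.25 and -0.20 at 60 min and -0.05, -0.37 and -0.04 at 120 min. In cds1 mutants it read -0.13, 0.14 and 0.37 untreated, -0.80, -0.53 and -0.37 at 60 min and -0.92, -1.04 and -0.96 at 120 min. The cds1 samples of 120 min all lay below every wild type sample, and rad3 was alike at -0.90, -1.10 and -1.07, while chk1 read -0.55, -0.32 and -0.14. The late change was -0.25 ± 0.13 in wild type (limma, adjusted p = 0.15), -0.90 ± 0.12 in cds1, -0.82 ± 0.13 in rad3, -0.40 ± 0.13 in chk1 and -1.48 ± 0.21 in rad3sep1. The difference between cds1 and wild type was -0.65 ± 0.17 (limma, adjusted p = 0.0346), and that between rad3 and wild type -0.57 ± 0.18 (limma, adjusted p = 0.117). Both probes of gar2 gave the decrease, at -0.70 and -0.61 for the difference, and neither passed alone. The call also ended after quantile normalization and without any 1 of 9 of the 17 samples: each untreated and each 60 min sample of wild type, its 120 min samples 1 and 3, and untreated cds1 samples 2 and 3.

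Before treatment none of these genes passed the test between a single mutant and wild type. Of the 86, 0 passed in limma for rad3, 0 for cds1 and 0 for chk1 against wild type, where 0.955%, 0.122% and 0.142% of all features did, and 1, 2 and 2 had an unadjusted p under 0.05. The rad3sep1 culture differed from rad3 before HU in 21 genes, 4 higher and 17 lower, where 22% of all features differed, so the share among the 86 genes, 24.4%, was near that of the array; 15.7% of all features were lower and 6.32% higher. The lower genes included rpf2 at -1.13 ± 0.29, dbp5 at -0.99 ± 0.21 and rrp17 at -0.98 ± 0.22. The 4 higher genes were dbp2 at 0.59 ± 0.17, utp22 at 0.49 ± 0.14, utp10 at 0.47 ± 0.17 and rrp42 at 0.44 ± 0.15. With 1 probe of each gene alone 11 or 12 genes passed.

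noc4, whose product belongs to small subunit assembly, was the gene that went up. Its mean over both probes changed by 0.67 ± 0.16 in rad3, 0.92 ± 0.15 in cds1, 0.47 ± 0.16 in chk1 and 1.46 ± 0.27 in rad3sep1, each past the test, and in wild type the change was 0.26 ± 0.16 and did not pass. The probes disagreed. The first read 0.47, 0.22 and 0.17 untreated in cds1 and 3.43, 3.46 and 3.03 at 120 min, while the second read 0.74, 0.01 and -0.13 untreated and -0.27, -0.19 and -0.14 at 120 min. In rad3 at 120 min the first probe read 1.07, 3.16 and 3.40, so 1 sample lay far below the other two. Late changes of the first probe were 0.70 in wild type, 1.52 in rad3, 2.24 in cds1, 0.86 in chk1 and 3.36 in rad3sep1, and those of the second -0.17, -0.18, -0.40, 0.07 and -0.44. The second probe of noc4 passed in cds1 alone and in the downward direction (limma, adjusted p = 0.0232), so the rise of noc4 was measured by 1 probe and not by the other. Which of the probes measures noc4 was not tested.

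**Figure D5:**
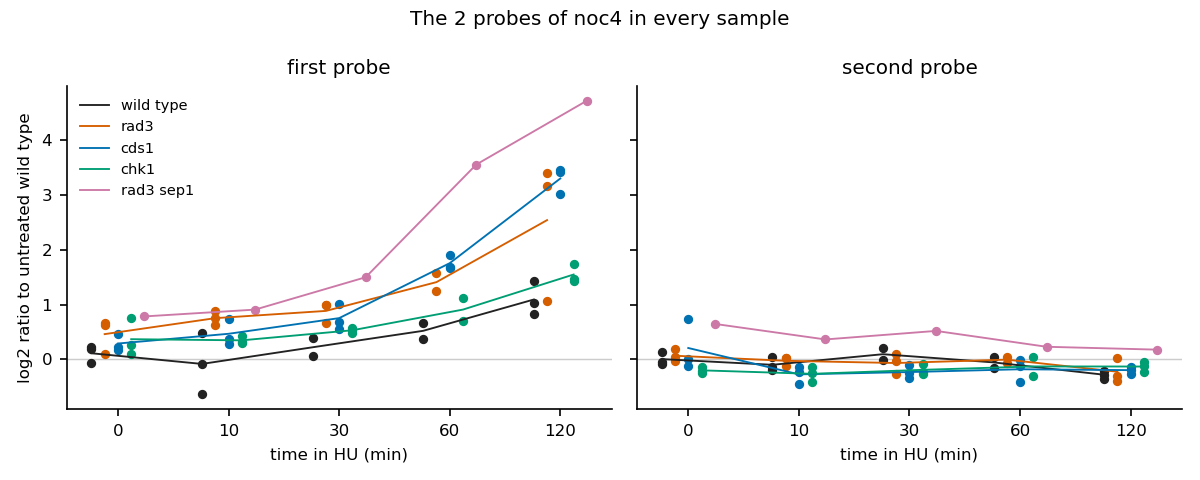
Log2 ratio to untreated wild type (vertical axis) of the first (left) and second (right) probe of noc4 in every sample, by time in HU in min (horizontal axis, unevenly spaced times); points are samples, colours are strains and lines join group means. The first probe reaches 4.73 in rad3sep1 at 120 min, and the second lies between -0.45 and 0.74 in all samples.

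A second gene with opposed probes, singled out after its values were seen, was nop8: late changes of its first probe were -0.42 in wild type, -0.29 in rad3, -0.30 in cds1, -0.48 in chk1 and -0.37 in rad3sep1, and those of its second 0.52, 0.33, 0.25, 0.55 and 0.91. The mean of nop8 near 0 is thus the mean of a lower and a higher probe. Over the whole list both probes lay below 0 in the late change for 70 of 86 genes in wild type, 77 in rad3, 70 in cds1, 73 in chk1 and 76 in rad3sep1, and they had opposite signs for 12, 9, 16, 8 and 7 genes. Across genes, the correlation of the 2 probes' values within single arrays ran from 0.11 to 0.66 with a median of 0.51.

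Other genes of the pathway were set beside these 86. Of 15 genes of RNA polymerase I and its factors, 9 were lower late in wild type, 6 in rad3, 5 in cds1, 9 in chk1 and 4 in rad3sep1, and 0 were higher. The lower polymerase genes included rpa34 at -1.14 ± 0.21 and spp27 at -0.69 ± 0.10 in wild type. For this list and the next, the shares of all features lower in the 5 strains were 12.1%, 8.94%, 12.6%, 14.9% and 5.14%. Of 65 other processing and assembly factors, 29 were lower in wild type, 24 in rad3, 22 in cds1, 32 in chk1 and 32 in rad3sep1, and 0 were higher, with puf6 at -0.75 ± 0.13 and mpp10, of the processome, at -0.65 ± 0.12 in wild type.

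The ribosomal protein genes, the other part of a ribosome's parts list, held fewer lower genes in wild type. Of 126, 2 were lower late in wild type, 14 in rad3, 46 in cds1, 7 in chk1 and 6 in rad3sep1. The shares of all features that were lower were 12.1%, 8.94%, 12.6%, 14.9% and 5.14%. Higher were 1, 1, 1, 0 and 1 of the 126. Median changes of the 126 were -0.04, -0.23, -0.32, -0.08 and -0.05. In wild type the assembly genes' median of -0.39 stood beside -0.04 for the ribosomal protein genes, and in cds1 -0.33 stood beside -0.32. A late change averages the start and end of the second hour, so a small one does not show that levels held still. Within the second hour the median change of the 126 was -0.31 in wild type, -0.26 in rad3, -0.19 in cds1 and -0.14 in chk1. Few single genes passed the test there: 2, 2, 3 and 1 were lower and 0, 0, 1 and 0 higher. The assembly genes' medians for that hour were 0.01, -0.19, -0.02 and -0.22. The difference between the late changes of cds1 and wild type passed the test for 0 of the 126 ribosomal protein genes.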

How the data were processed

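Values are log2 ratios of Cy5 (sample) to Cy3 (untreated wild type), deposited by the authors; per the labels, total RNA was taken by hot phenol and dyes coupled to amino-allyl cDNA. How they were normalized is not given in the sources read. Every value is the log2 of a ratio rounded at 3 decimals (tolerance 1e-05). The 9858 probes were averaged by pairs to 4929 features, of which 4921 had values on at least 2 arrays in each group; 0.238% of values were missing and array medians ran from -0.15 to 0.06. Array pairs whose probe differences correlated under 0.05 (9 of 65 pairs, the others at 0.11 or more) were averaged. Repeats are called biological in the series' text.

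Group means of 25 groups were fitted with limma 3.58.1 in R 4.3.3, with Benjamini-Hochberg adjustment over all features and a threshold of 0.05. The fit was tested on simulated data. Same-numbered samples deviated together (every pair's correlation over 0.1) in wild type early, in cds1 and chk1 early and late, in rad3 late, and in untreated cds1 and chk1 against wild type; the second hour rests on 3 pairs in cds1 and 1 in the other strains, all over 0.1; they did not in wild type late (0.008 in 1 pair), rad3 early or untreated rad3. The pairing rests on this correlation, not on the labels.

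The members, gene lists and tests were chosen with earlier results of these data known, and roles were assigned by hand. Named genes were the 10 given by name in the rule, up to 10 members with the largest changes each way per comparison among those past the threshold, up to 4 per role with the smallest adjusted p, and those of other roles. Gene names come from the platform annotation, and the genes' neighbours from RefSeq's gene table. Alternatives were all 70 arrays as samples, median centring, quantile normalization, missing-value filters, each probe alone, only the strains compared, the replicate block, a change of at least 0.5, and leaving out each sample; single times were added after seeing the data. No sequences are shown.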

Additional observations from a re-analysis of the deposited data

Results flagged for a closer look

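1 response to HU differed between strains by a test of the difference itself: the late change of gar2, the nucleolin homolog, differed by -0.65 on the log2 scale between cds1 mutants and wild type, where it was smaller (limma, adjusted p = 0.0346 over 4921 features), with all 3 cds1 samples of 120 min below every wild type sample. The call was lost in 9 of the 17 fits that left out 1 sample, after quantile normalization (adjusted p = 0.0644) and with either probe alone (adjusted p = 0.115 and 0.0802). Of all features, 2.15% passed in the same comparison. In rad3 mutants gar2 fell to similar levels at 120 min, but the difference between rad3 and wild type did not pass. No group was large enough to be searched for single outlying samples, since none held more than 3.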

How the results depend on the processing

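Counts below are of the 86 genes past the threshold, in either direction. The shares of all features in the alternative fits are not given beside these counts. With all 70 arrays as samples, 72 were called late in rad3sep1 (44 with pairs averaged), early 10 in wild type, 41 in rad3, 6 in cds1 and 17 in chk1, in the second hour 3, 7, 2 and 12, for late differences 2 (rad3), 3 (cds1) and 9 (rad3sep1 against rad3), and untreated 48 for rad3sep1 against rad3. Quantile normalization gave 5 late in rad3sep1, 37 and 11 early in rad3 and chk1, 0 in the second hour in rad3, cds1 and chk1, and 0 for cds1 against wild type. Array SDs rose from a median of 0.31 at 0 min to 0.49 at 120 min, and quantile normalization makes them equal. The first probe alone gave 26 late in rad3sep1, early 0, 8, 1 and 1 in wild type, rad3, cds1 and chk1, 2 and 3 in the second hour in cds1 and chk1, and 11 untreated in rad3sep1 against rad3. The second probe alone gave late 34, 33, 26 and 25 in wild type, rad3, cds1 and rad3sep1, early 1, 9, 1 and 3, 0, 0 and 1 in the second hour in rad3, cds1 and chk1, 0 for cds1 against wild type and 12 untreated; it turned noc4 to -0.18 late in rad3, -0.40 in cds1, -0.44 in rad3sep1 and -0.016 in the second hour in cds1. Fitting only the strains compared gave early 7, 1 and 2 in wild type, cds1 and chk1. A change of at least 0.5 as well left late 26, 32, 19 and 32 in wild type, rad3, cds1 and chk1, 3 early in chk1 and 0 in the second hour in rad3. The 60 min samples alone gave late 31, 11, 24 and 9; the 10 min samples alone early 0, 2, 0 and 0, and 30 min alone 8 in cds1 and 22 in chk1.

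With the replicate block the early counts were 8, 53, 11 and 28, those of the second hour 2, 4, 2 and 15, those of late differences 3 (rad3), 4 (cds1) and 1 (rad3sep1 against rad3), and the untreated rad3sep1 count 34; it moved no other count by over 1.5 times. Leaving out 1 sample at a time gave late 34 to 55 in wild type, 38 to 50 in rad3, 28 to 46 in cds1 and 39 to 57 in chk1, early 0 to 3, 3 to 34, 1 to 5 and 0 to 6, second hour 0 to 1, 0 to 2, 1 to 2 and 0 to 11, late differences 0 to 1 for rad3 and 0 to 2 for cds1, and untreated 14 to 18 for rad3sep1. Of the late calls 23 in wild type, 27 in rad3, 17 in cds1, 28 in chk1 and 5 in rad3sep1 held in each of the fits above other than the size minimum and the single times. The cause of these moves was not tested. Leaving out a rad3sep1 sample, or fitting that strain alone, was not run: no group or no residual spread would be left.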
